A study of Mus musculus with 9 samples.

Results

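The 10 genes described here encode the core proteins of small nucleolar ribonucleoproteins (snoRNPs) and the factors that assemble them. They were chosen by gene symbol from a table of 55367 genes. Fbl, Nop56 and Nop58 belong to the box C/D class, Dkc1, Nhp2, Nop10 and Gar1 belong to the H/ACA class, and Naf1, Nolc1 and Tcof1 assist assembly or serve as nucleolar scaffolds. All 10 had counts, and all 10 passed the filter on low counts that left 15365 genes for testing. Whole-tumor RNA-Seq was compared between 2 genetically engineered mouse models (GEMMs) of osteosarcoma, a bone-forming tumor. The 4 p53-driven tumors, named F187, F325, F331 and F368 after their columns, are labelled Col2.3-Cre/TrpP53fl/+. The 5 Myc-knockin tumors, named M351, M408, M9, M624 and M664, carry (LSL)-c-MycT58A beside p53fl/+ in their label, that is a Cre-dependent (Lox-Stop-Lox) allele of c-Myc with a substitution known to stabilize the MYC protein. Both models therefore share the Col2.3 promoter, which drives Cre in osteoblasts, and 1 floxed copy of Trp53. No treatment is labelled, and the age of each animal is not given in the sources used here.

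A snoRNP joins a short guide RNA to a fixed set of proteins and modifies ribosomal RNA in the nucleolus. Box C/D particles carry FBL, which methylates the ribose, on a frame of NOP56 and NOP58. H/ACA particles carry DKC1 (dyskerin), which turns uridine into pseudouridine, with NHP2, NOP10 and GAR1, and the same 4 proteins bind telomerase RNA. NAF1 accompanies new H/ACA particles and is later replaced by GAR1. NOLC1 (Nopp140) binds both classes in the nucleolus and in Cajal bodies, and TCOF1 (treacle) links RNA polymerase I transcription with early processing of ribosomal RNA. Several of these genes are textbook MYC targets, and MYC is known for driving ribosome production in growing cells.

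Several members also carry snoRNAs in their own introns, so that a single transcript can give both a protein and a guide RNA. GENCODE places 5 snoRNA genes inside Nop56, 4 inside Nop58 and 1 inside Dkc1, all on the strand of the host. The following 6 are shown as examples that hold at least 1 of the sequence boxes that the proteins described here bind. Gm23187, Snord57 and Gm26293 also hold such boxes and are not shown. Capitals mark the first ATGATG within 20 bases of the 5′ end (box C), the last CTGA that starts within 15 bases of the 3′ end (box D), or an ACA that lies 3 bases from the 3′ end (the box that names the H/ACA class). The sequences are those of the GENCODE M21 transcripts, written 5′ to 3′ as DNA.
Snord110, in Nop56, chr2:130275506-130275573 of mm10, plus strand: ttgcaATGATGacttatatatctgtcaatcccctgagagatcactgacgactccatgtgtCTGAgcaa
Gm23650, in Nop56, chr2:130277697-130277766, plus strand: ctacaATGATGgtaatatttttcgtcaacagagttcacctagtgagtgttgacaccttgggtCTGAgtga
Gm24451, in Nop56, chr2:130276237-130276369, plus strand: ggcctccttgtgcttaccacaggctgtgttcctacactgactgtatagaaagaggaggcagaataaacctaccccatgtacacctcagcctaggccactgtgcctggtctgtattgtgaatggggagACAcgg
Snord11, in Nop58, chr1:59704790-59704873, plus strand: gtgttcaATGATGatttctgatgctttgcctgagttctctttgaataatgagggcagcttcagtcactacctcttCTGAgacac
Gm26287, in Nop58, chr1:59704258-59704338, plus strand: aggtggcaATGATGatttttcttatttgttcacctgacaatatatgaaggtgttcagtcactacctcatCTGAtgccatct
Snord70, in Nop58, chr1:59691934-59692020, plus strand: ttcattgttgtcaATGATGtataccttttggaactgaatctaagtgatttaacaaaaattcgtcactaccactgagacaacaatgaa
Nop56 thus holds snoRNAs with boxes of both classes, whereas the 3 shown from Nop58 begin with box C. In Snord70 no CTGA starts within the last 15 bases, which says only that these letters are not in that window.

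The libraries differed in ways that touch every value below. Each tumor had between 2716322 and 17073285 counts. Levels are given as CPM, the counts relative to the library size after TMM normalization, and 3 counts amount to between 0.114 and 2.39 CPM. A set of 12 numbered Gm genes is called satellite genes here. They were chosen partly because their share of counts differed at least 100 times between libraries, and no repeat annotation was checked. These genes took between 23.2% and 81.0% of the counts of F187, M351, M408 and M9, against at most 0.156% in the other 5. M624 and M664 nearly lacked the non-polyadenylated RNA Rn7sk, at 3.47 and 6.35 CPM against at least 6545 CPM elsewhere. They also held relatively more short and GC-rich transcripts. Myc itself was between 144 and 1045 CPM in the Myc-knockin tumors and between 43.5 and 67.1 CPM in the p53-driven tumors. M624 stood apart in bone identity as well, since Runx2, the master regulator of osteoblasts, was at 9.18 CPM there and at 132 CPM or more in each of the other 8 tumors. Columns were placed in the 2 groups by name, M351, M9 and M664 only by the letter M.

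All 10 members had a positive log2 fold change in Myc-knockin against p53-driven tumors, with a median of 1.29, where the median of all 15365 genes was 0.14 and 56.2% were above 0. The test called a gene where the adjusted p was under 0.05 and the fold change exceeded 1.5. By this rule 4 of the 10 were called higher, namely Fbl, Dkc1, Naf1 and Nolc1, and none was called lower. In edgeR's fit 2.26% of all genes were called higher. The other 6 members had adjusted p values from 0.0511 to 0.105 in edgeR's quasi-likelihood test (Benjamini-Hochberg adjustment), and all 10 had an unadjusted p under 0.05. Fbl, Nop58, Dkc1, Naf1 and Nolc1 were higher in every Myc-knockin tumor than in any p53-driven tumor, which holds for 5.41% of all genes. A higher value in bulk tumor RNA can come from more cells that express a gene or from more RNA per cell, and these cannot be told apart.

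**Figure D1:**
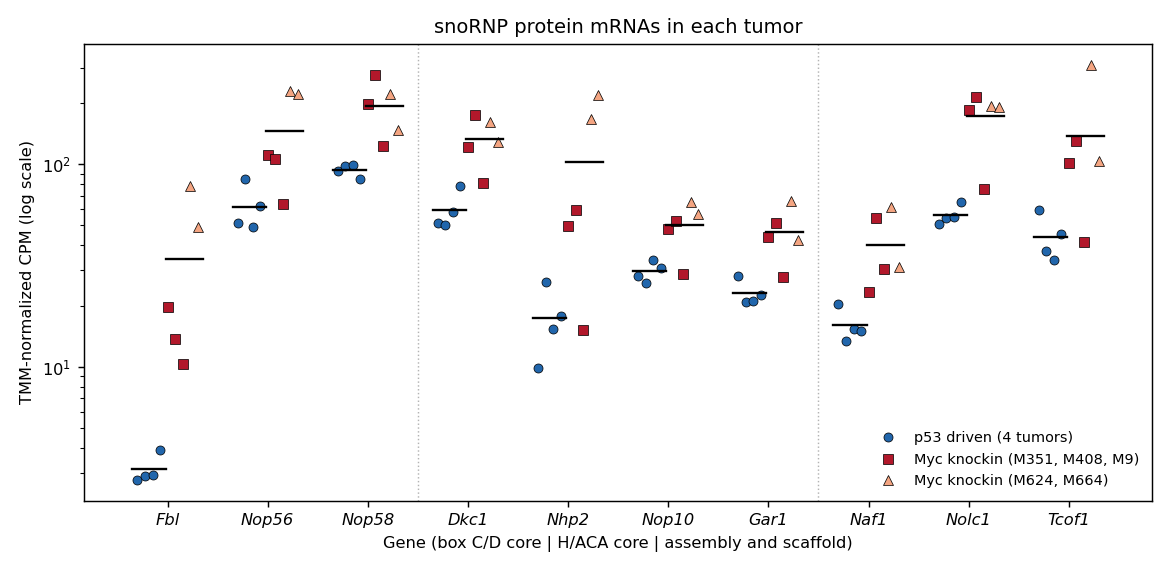
TMM-normalized CPM of the 10 genes in each tumor on a log axis, with circles for p53-driven tumors, squares for M351, M408 and M9, triangles for M624 and M664, and short lines at the group means. In 5 of the 10 genes every Myc-knockin tumor lies above every p53-driven tumor, and M9 is the lowest Myc-knockin tumor in 9 genes.

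Fbl showed the widest separation of the 10. Fbl (ENSMUSG00000046865, chromosome 7, 28169710 to 28179269, plus strand) encodes the box C/D methyltransferase fibrillarin. It was at 2.76, 2.88, 2.94 and 3.89 CPM in F187, F325, F331 and F368. The values in M351, M408, M9, M624 and M664 were 19.7, 13.7, 10.4, 78.5 and 48.9 CPM. The groups did not overlap, and the Myc-knockin tumors themselves spread widely, with M624 and M664 at the top. The log2 fold change was 3.47 (SE 0.63, edgeR adjusted p = 0.0218), which ranked 163 of 15365 genes, counted from the most positive value down. Depth was thin in places, since F187 gave 7 reads on Fbl (exact Poisson 95% interval 2.81 to 14.4) and M9 gave 13 (6.92 to 22.2). Reads expected from genomic background came to 42.9% of the Fbl count in F187 and 40.3% in M9, and the log2 fold change with this background subtracted was 3.57. The pseudogene Fbl-ps2 had 0 counts in all tumors and the related Fbll1 had 12.

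The frame proteins of the box C/D particle differed less. Nop56 (ENSMUSG00000027405, chromosome 2, 130274430 to 130279313, plus strand) was at 51.3, 84.2, 49.0 and 62.0 CPM in F187, F325, F331 and F368. The values were 111 CPM in M351, 106 in M408, 63.7 in M9, 230 in M624 and 221 in M664. M9 fell within the p53-driven range, and the other 4 Myc-knockin tumors lay above it. The log2 fold change of Nop56 was 1.25 (SE 0.40, edgeR adjusted p = 0.0826) and did not pass the threshold. Nop58 (ENSMUSG00000026020, chromosome 1, 59684971 to 59719044, plus strand) was at 92.4, 97.5, 99.1 and 84.1 CPM in F187, F325, F331 and F368. In M351, M408, M9, M624 and M664 it was at 199, 276, 123, 223 and 147 CPM. The p53-driven tumors were close together and all below the lowest Myc-knockin tumor, M9. Nop58 missed the threshold with a log2 fold change of 1.05 (SE 0.29, edgeR adjusted p = 0.0583).

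In the H/ACA class the catalytic subunit passed the test and its 3 partners did not. Dkc1 (ENSMUSG00000031403, chromosome X, 75095854 to 75109777, plus strand) was at 51.3, 50.2, 57.9 and 77.7 CPM in F187, F325, F331 and F368. Values in M351, M408, M9, M624 and M664 were 121, 175, 80.5, 161 and 129 CPM. The groups did not overlap, although M9 exceeded F368 by little. Dkc1 rose by a log2 fold change of 1.17 (SE 0.29, edgeR adjusted p = 0.045). Its 3′ end shares 45 exon bases with Mpp1 on the opposite strand, which is 1.09% of its exons.

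Nhp2 (ENSMUSG00000001056, chromosome 11, 51619735 to 51623714, plus strand), which encodes an RNA-binding core protein, was the most variable member of its class. It was at 9.87, 26.2, 15.4 and 17.9 CPM in F187, F325, F331 and F368. It reached 49.9 CPM in M351, 59.7 in M408, 15.1 in M9, 166 in M624 and 219 in M664. The pair M624 and M664 lay far above the rest, and M9 lay among the p53-driven tumors. With a log2 fold change of 2.56 (SE 0.67, edgeR adjusted p = 0.0511) it just missed the threshold.

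Nop10 and Gar1 had the smallest differences of the 10. Nop10 (ENSMUSG00000027133, chromosome 2, 112261926 to 112263269, plus strand) encodes the small protein that holds dyskerin's catalytic domain. Its CPM was 28.0, 26.1, 33.6 and 30.8 in F187, F325, F331 and F368, and 48.0, 52.7, 28.7, 64.8 and 56.7 in M351, M408, M9, M624 and M664. Of the Myc-knockin tumors only M9 fell in the p53-driven range. Nop10 had a log2 fold change of 0.77 (SE 0.27, edgeR adjusted p = 0.105). Gar1 (ENSMUSG00000028010, chromosome 3, 129824912 to 129831396, minus strand) encodes the subunit that completes the mature particle. Its CPM was 28.0, 20.8, 21.2 and 22.7 in F187, F325, F331 and F368, and 43.7, 51.3, 27.9, 66.1 and 42.5 in M351, M408, M9, M624 and M664. M9 was just below F187, so the groups overlapped by a single tumor of each. Its log2 fold change was 1.01 (SE 0.28, edgeR adjusted p = 0.0601).

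Naf1 and Nolc1 rose among the assembly and scaffold members. Naf1 (ENSMUSG00000014907, chromosome 8, 66860217 to 66890564, plus strand), the assembly factor of H/ACA particles, was at 20.5, 13.5, 15.3 and 15.1 CPM in F187, F325, F331 and F368. It was at 23.4, 54.2, 30.3, 61.3 and 31.3 CPM in M351, M408, M9, M624 and M664. Here M351, not M9, was the lowest Myc-knockin tumor, and the groups did not overlap. Naf1 rose by a log2 fold change of 1.34 (SE 0.34, edgeR adjusted p = 0.0474).

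Nolc1 (ENSMUSG00000015176, chromosome 19, 46075863 to 46085530, plus strand) encodes Nopp140, the scaffold that binds snoRNPs of both classes. It was at 50.6, 54.4, 54.8 and 65.0 CPM in F187, F325, F331 and F368. M351, M408, M624 and M664 had 185, 214, 195 and 192 CPM, and M9 had 75.7 CPM. Those 4 tumors differed little from each other, and M9 lay nearer the p53-driven range. Nolc1 rose by a log2 fold change of 1.62 (SE 0.32, edgeR adjusted p = 0.0266).

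Tcof1 (ENSMUSG00000024613, chromosome 18, 60813755 to 60848971, minus strand) had a similar log2 fold change of 1.66 with a wider error (SE 0.50, edgeR adjusted p = 0.07), and it was not called. Its CPM was 59.2, 37.3, 33.6 and 45.3 in F187, F325, F331 and F368. The Myc-knockin values were 102 in M351, 131 in M408, 41.4 in M9, 310 in M624 and 104 in M664. M624 was far above every other tumor, and M9 lay within the p53-driven range.

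The lowest place among the Myc-knockin tumors varied little between members and the order above it varied more. M9 was the lowest of the 5 for 9 of the 10 members, and M624 was the highest of all 9 tumors for 6, M408 for 3 and M664 for 1. M408 exceeded M664 for 6 members. M351, M408, M624 and M664 each exceeded every p53-driven tumor for all 10 members, and M9 did so for 5. The mean of log2(CPM + 1) over the 10 members was 4.87 to 5.04 in the p53-driven tumors. It was 5.32 in M9, 6.14 in M351, 6.42 in M408, 6.61 in M664 and 7.07 in M624. Myc itself had 144, 270, 520, 905 and 1045 CPM in these 5 tumors, the same order, given here as a description of 5 points. Satellite reads took 81.0% of the counts in M9, 67.8% in M351, 23.2% in M408 and at most 0.156% in the other 2, so this share fell along much the same order, and its part in the result was not tested.

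M9 was the thinnest library outside the satellite genes, with 672872 counts, and its 10 members had between 13 and 154 reads each. Genomic background was estimated from 1806 chemosensory receptor genes, which bone tumors are not known to express. Per kilobase of exon it came to 1.24 reads in M9, 1.12 reads in M351, 0.713 reads in F187, 0.152 reads in M408 and at most 0.0479 reads in the others. The median member thus owed 6.94% of its M9 count to this background. With the expected background subtracted, all 10 members were called higher, against 4.29% of all genes tested in that fit, and their log2 fold changes ranged from 0.87 for Nop10 to 3.57 for Fbl. Without M9 all 10 were called as well, against 6.03% of all genes.

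For 4 members the mean of M624 and M664 was well above that of the other Myc-knockin tumors, although M664 did not exceed M408 for Tcof1. The mean CPM of the pair was 4.36 times that of the other 3 Myc-knockin tumors for Fbl, 4.64 times for Nhp2, 2.41 times for Nop56 and 2.27 times for Tcof1. The other 6 members had ratios between 0.929 for Nop58 and 1.41 for Nop10. Over all tested genes with a coding transcript of 1000 to 1500 bases, the length of Fbl, Nhp2, Nop10 and Gar1, the pair was 0.76 higher on the log2 scale than the other 3. Over transcripts longer than 8000 bases, among them Nop58, it was lower by a median log2 difference of -0.91. An offset for GC content and transcript length gave log2 fold changes of 2.87 for Fbl, 2.07 for Nhp2, 1.01 for Nop56, 1.40 for Nop58 and 1.55 for Tcof1. Gar1 had 0.66 (edgeR adjusted p = 0.225), and Naf1 lost its call at 1.35 (edgeR adjusted p = 0.0513). Under it Fbl, Dkc1, Nhp2 and Nolc1 were called, 4 of 10, against 2.53% of all genes called higher.

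Without M624 and M664 the 3 remaining Myc-knockin tumors still gave positive log2 fold changes for all 10 members, from 0.62 for Nop10 to 2.27 for Fbl, with a median of 1.16. Fbl (edgeR adjusted p = 0.0272) and Nolc1 (log2 fold change 1.56, edgeR adjusted p = 0.0451) were called, against 1.8% of all genes, and the other 8 were not. Leaving out M624 alone, the tumor with little Runx2, left the same 2 called, against 1.13% of all genes. The fit without F187, M351, M408 and M9 compared M624 and M664 with 3 p53-driven tumors. It called all 10 higher, against 15.7% of all genes, and in it genotype and the difference between library types cannot be told apart. Its log2 fold changes ranged from 1.00 for Nop58 to 4.32 for Fbl.

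**Figure D2:**
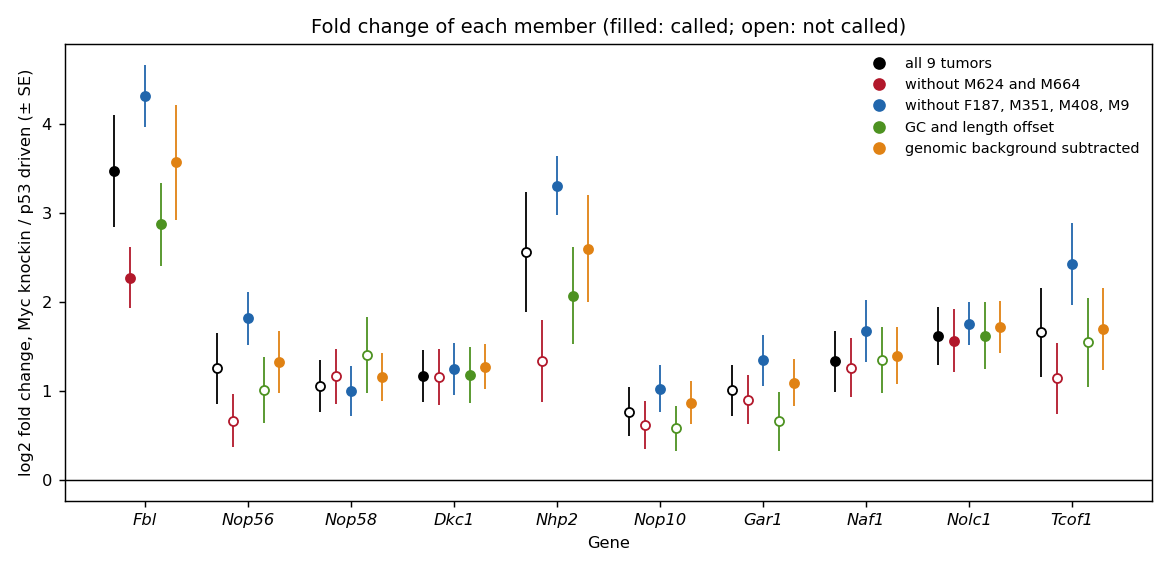
Log2 fold change (Myc knockin over p53 driven) with its standard error for each gene, fitted with all 9 tumors, without M624 and M664, without the 4 libraries rich in satellite reads, with a GC and length offset, and with genomic background subtracted. Filled points were called and open points were not, and every point lies above 0, with the values for Fbl between 2.27 and 4.32 and those for Dkc1 between 1.16 and 1.27.

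Proteins of a particle are needed in fixed proportions, so the members were also compared with each other within each tumor, as ratios of CPM per kilobase of exon. Fbl per Nop56 was 0.0333 to 0.0611 in the p53-driven tumors, 0.126 to 0.172 in M351, M408 and M9, and 0.215 to 0.332 in M624 and M664. The 3 sets of tumors were thus separate in these values, though Fbl had only 7 reads in F187 and 13 in M9. The coding transcript of Fbl (1197 bases) is also shorter than that of Nop56 (1877 bases). The offset for GC and length was not applied to the ratios. Gar1 per Dkc1 was 0.704 to 1.31 in the p53-driven and 0.704 to 0.984 in the Myc-knockin tumors, which overlapped. Nop10 per Dkc1 was 1.47 to 2.16 in the p53-driven tumors and 1.12 to 1.64 in the Myc-knockin tumors, again with overlap. Nhp2 per Dkc1 was 3.71 in M624 and 6.14 in M664, against at most 1.88 in the other 7 tumors. Nop58 per Nop56 was 0.369 in M624 and 0.254 in M664, below the 0.441 to 0.993 of the others. Of the 10 members Nop58 has the longest coding transcript (9507 bases) and Nhp2 the shortest (1042 bases). Naf1 per Gar1 was 0.358 to 0.406 in the p53-driven tumors and 0.297 to 0.601 in the Myc-knockin tumors. Tcof1 per Nolc1 was 1.20 in M624 and at most 0.884 elsewhere.

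**Figure D3:**
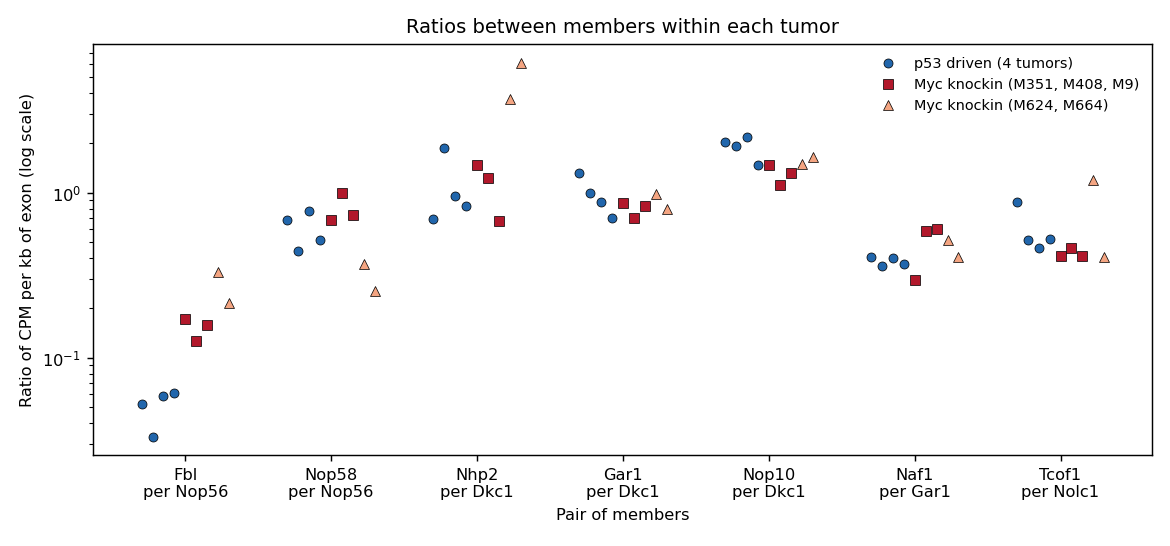
Ratio of CPM per kilobase of exon between pairs of members within each tumor, on a log axis, with the same symbols for tumors as in the plot of levels. Fbl per Nop56 lies at 0.0333 to 0.0611 in p53-driven tumors and at 0.126 or more in Myc-knockin tumors, whereas Gar1 per Dkc1 overlaps between the groups.

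Per kilobase of exon, the mean level of the members in p53-driven tumors ran from 0.741 ± 0.123 CPM for Fbl to 26.7 ± 2.98 CPM for Nop10 (SD, n = 4). Nhp2 (15.1 ± 5.93), Nop56 (15.04 ± 3.92), Dkc1 (14.4 ± 3.09), Nolc1 (14.2 ± 1.56) and Gar1 (13.5 ± 1.94) were next, and these neighbours differed by less than their spread. Nop58 (8.67 ± 0.628) and Tcof1 (8.34 ± 2.15) followed, also within their spread, and then Naf1 (5.20 ± 0.994). In Myc-knockin tumors Fbl was again the lowest at 8.13 ± 6.90 CPM per kilobase, and Nhp2 the highest at 89.1 ± 75.6 (SD, n = 5). Exon length counts every annotated exon, which for Fbl gives 4209 bases although its longest coding transcript has 1197, so the level of Fbl per length depends on that choice.

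The rest of the snoRNP pathway had positive log2 fold changes as well, and few of its genes passed the test. Of 16 other snoRNP proteins and assembly factors, 14 were in the table under the listed symbol and tested. All 14 had a positive log2 fold change (median 1.34), 4 were called higher, against 2.26% of all genes, and none was called lower. Rrp9, a protein of the U3 snoRNP, was at 2.37 to 5.13 CPM in the p53-driven and 7.97 to 93.8 CPM in the Myc-knockin tumors (log2 fold change 3.43, SE 0.70, edgeR adjusted p = 0.0279). Ruvbl2, an ATPase of the R2TP assembly complex, rose by 2.30 (SE 0.57, edgeR adjusted p = 0.0429), and Coil, the scaffold of Cajal bodies, by 2.08 (SE 0.43, edgeR adjusted p = 0.0288). Snu13, the protein that first binds box C/D RNA, was at 20.1 to 25.3 CPM against 23.9 to 130 CPM and missed the threshold (log2 fold change 1.51, edgeR adjusted p = 0.0815). Without M624 and M664, 1 of these 14 genes was called, where 1.8% of all genes were called higher, and the median was 0.68.

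Other enzymes and machines act on the same ribosomal RNA, and their lists were not compared with the snoRNP lists by a test. Among 12 tested stand-alone rRNA modification enzymes the median log2 fold change was 1.11, and Nat10, an RNA acetyltransferase, was called higher at 1.22 (SE 0.32). All 20 tested U3 processome genes had positive log2 fold changes (median 0.90), apart from Dcaf13 with scaling by library size alone (-0.0064), and Pwp2 at 1.39 (SE 0.32) and Imp4 at 1.06 (SE 0.27) were called higher. Of 11 RNA polymerase I genes, with a median of 0.62, Polr1b at 1.59 (SE 0.35) and Polr1e at 1.53 (SE 0.30) were called higher. Of all genes 2.26% were called higher in this fit. No gene of these 3 lists was called lower, and 10, 12 and 5 of their genes had an unadjusted p under 0.05 in edgeR. Without M624 and M664 the medians of the 3 lists were 0.88, 0.78 and 0.21. There edgeR called 0, 0 and 3 of their genes higher, against 1.8% of all genes, with 8, 9 and 4 at an unadjusted p under 0.05. For telomerase, whose RNA is bound by the H/ACA proteins, Tert and the Cajal body factor Wrap53 were tested and not called. Wrap53 was at 2.31 to 5.13 CPM against 5.58 to 23.3 CPM (log2 fold change 1.93, SE 0.52, edgeR adjusted p = 0.0545), and Terc was not tested for lack of counts.

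**Figure D4:**
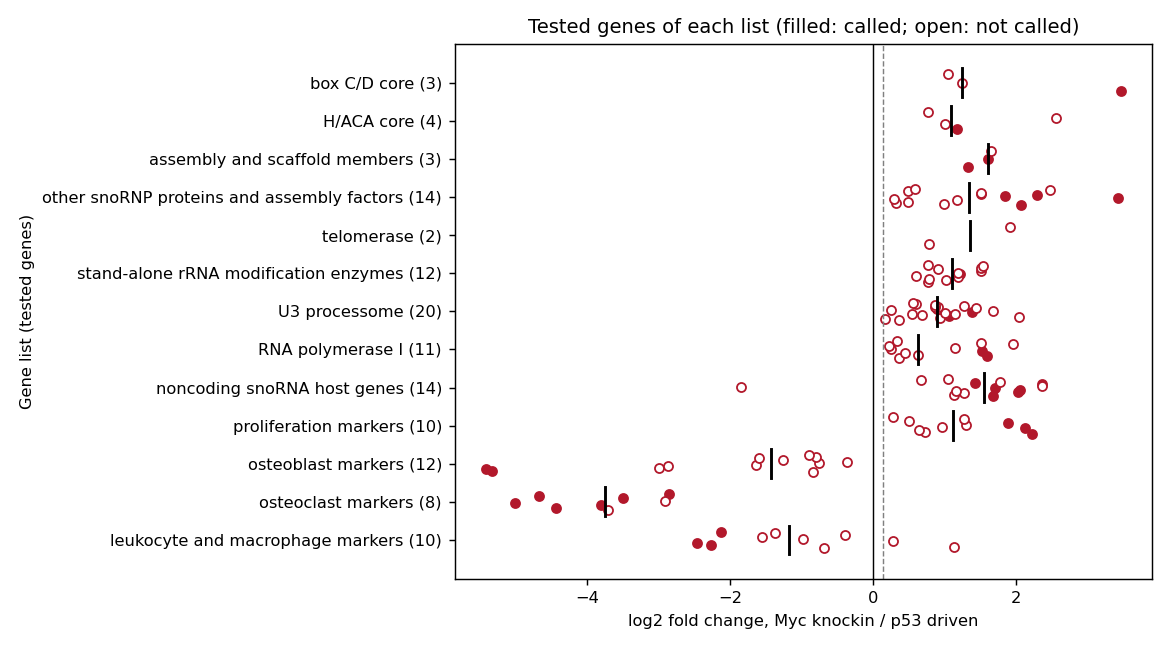
Log2 fold change (Myc knockin over p53 driven) of every tested gene in 13 lists, with filled points for called genes, black bars at the list medians and a dashed line at 0.14, the median of all 15365 genes. In the fit of all 9 tumors under TMM scaling, the snoRNP, rRNA modification, U3 processome and RNA polymerase I genes all lie above 0. Every tested osteoclast and osteoblast marker lies below 0. By library size alone Dcaf13 of the U3 processome turns to -0.0064. Signs without M624 and M664 are not drawn and need not all be positive. For example, Ubtf of RNA polymerase I was at 118, 135 and 82.9 CPM in M351, M408 and M9, against 120 to 123 CPM in p53-driven tumors.

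The guide RNAs themselves were hardly measured. They lack a poly(A) tail, and the paper's methods describe an enrichment of polyadenylated RNA. Rn7sk, which lacks this tail as well, was still at 6545 CPM or more in every library but M624 and M664. How far the enrichment took effect in each library was not tested. The snoRNAs inside Nop56, Nop58 and Dkc1 had at most 28 counts over the 9 tumors, in Snord70, and 5 of the 10 had 0. These 5 lie partly or wholly in sequence that is also annotated as host exon, where reads of the host and of the snoRNA cannot be told apart. Summed over 98 Snord genes the level was 40.7 to 90.7 CPM in the p53-driven tumors, 90.7 to 132 CPM in M351, M408 and M9, and 11.1 and 11.4 CPM in M664 and M624. The 9 Scarna genes, guides of the Cajal body, summed to 62.0 to 101 CPM, 74.9 to 120 CPM, and 0.572 and 0.691 CPM in M624 and M664, with the sets in the same order. Of all Snord, Snora and Scarna genes 14 were tested, and none was called or had an unadjusted p under 0.05 in edgeR. The low values in M624 and M664 go with their near absence of Rn7sk.

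Long noncoding host genes release snoRNAs from their introns and make no large protein. Of 14 tested, 13 had positive log2 fold changes, and the median was 1.55. Of the 14, 6 were called higher, against 2.26% of all genes, and none was called lower. Snhg4 was at 3.11 to 4.74 CPM in p53-driven and 13.5 to 35.1 CPM in Myc-knockin tumors (log2 fold change 2.37, SE 0.37, edgeR adjusted p = 0.0176). Snhg16 (2.05, SE 0.53) and Snhg12 (2.04, SE 0.39) were also called. Snhg18 alone had a negative value, with 42.7 to 68.2 CPM against 3.85 to 31.9 CPM (log2 fold change -1.85, SE 0.55, edgeR adjusted p = 0.0682). Without M624 and M664, 4 host genes were called, where 1.8% of all genes were called higher, and the median was 1.20.

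Markers of the cell types in these tumors also differed between the groups. Of all 15365 tested genes, 461 were called lower and 348 higher. Of 8 osteoclast markers, 6 were called lower, and their summed level was 133 to 2560 CPM in the Myc-knockin and 2667 to 13763 CPM in the p53-driven tumors. Dcstamp was at 0 in 1 Myc-knockin tumor. Of 10 tested leukocyte and macrophage markers, 3 were called lower, with sums of 299 to 796 CPM against 926 to 1716 CPM, and Cd79a was at 0 in 1 p53-driven tumor. Cd14 and Fcgr3 had positive log2 fold changes (1.13 and 0.28), and neither was called. Of 12 osteoblast markers, 2 were called lower, with sums of 3622 to 41579 CPM against 66205 to 141847 CPM. Col1a1 and Col1a2 made up most of these sums, and neither was called (edgeR adjusted p = 0.0682 and 0.0817). Taken singly, 6 of the 12 were lower without overlap between the groups. The share of all genes that were lower in this way was not counted, so no comparison is drawn. The osteocalcin gene Bglap, a marker of mature osteoblasts, was at most 3.98 CPM in Myc-knockin and at least 17.7 CPM in p53-driven tumors. Bglap was at 0 in 1 Myc-knockin tumor and Bglap2 in 2. Of 10 proliferation markers, 3 were called higher, with sums of 649 to 1444 CPM against 444 to 755 CPM. The part of these shifts in the snoRNP result was not tested.

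The promoters of the members were read for the hexamers that MYC and MAX are known to bind. RefSeq promoters of the GRCm38.p6 assembly, from 250 bases before to 50 after the start, were found for 7 of the 10, and Fbl, Naf1 and Tcof1 had no entry. The canonical E-box CACGTG was in 0 of 7, and 8.09% of 27025 genes hold it in at least 1 promoter. The variant CACGCG, on either strand, was in Nhp2, Nop10 and Nolc1, against 10.5% of all genes with a promoter. The windows below are printed to show where it lies, with the hexamer in capitals (CGCGTG is its reverse complement) and the base counted from the start site.
Nhp2, chr11:51619764-51619793, plus strand, hexamer from base 3 after the start: ggaggcggcggcCGCGTGgttcctctatgc
Nop10, chr2:112261938-112261967, plus strand, hexamer from base 24 after the start: aggttgttggcgCACGCGattgaagcggcg
Nolc1, chr19:46075810-46075839, plus strand, hexamer from base -25: gcaggatgatgaCGCGTGtgggaccggaag
A match describes letters in a window and is no binding site, and no binding was measured in these tumors. Of the 3 members with the hexamer, Nolc1 was called and Nhp2 and Nop10 were not. Fbl and Naf1, also called, had no promoter entry, so called and uncalled members could not be compared for the hexamer.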

How the data were processed

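RNA of 9 whole tumors was, per the paper's methods, enriched with oligo-dT probes. Per these methods and the submitters' notes the authors trimmed the reads (Trim Galore), aligned them to mm10 (STAR) and summarized them by gene (featureCounts). What they deposited is raw counts, not normalized. Strand setting and treatment of multiply mapped reads are not given in the sources used here. Columns were assigned to groups by name, since no label names them. The samples within a group are separate tumors, and none agreed within sampling noise.

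Counts were tested with edgeR 4.0.16 (glmQLFit, glmQLFTest) in R 4.3.3 on the genes that filterByExpr kept at a minimum count of 10, scaled by TMM, with Benjamini-Hochberg adjustment over 15365 genes. Calls needed an adjusted p under 0.05 and a change of more than 1.5 times. SE is the absolute log2 fold change over the root of the F statistic. CPM is relative to the TMM-scaled library size. Intervals and floors cover counting error only. Positions, exon lengths, transcripts and GC content came from GENCODE M21, and promoters from RefSeq.

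The members and lists were chosen with earlier results of these data known. All 10 members are named, and of each other list the called genes with the 3 largest absolute log2 fold changes, plus genes that show what a list holds. Alternatives were upper-quartile and library-size scaling, other filters, DESeq2 1.42.0, limma-voom (limma 3.58.1), left-out tumors, and the removal of satellite genes, taken as 12 numbered Gm genes with at least 0.05% of the counts of some library and a ratio of at least 100 between libraries. The GC and length offset (a spline of each library on 13264 genes) and the subtraction of genomic background were chosen after seeing the data. The scripts were tested on simulated counts. The study's proteome, miRNA and human data were not used here.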

Additional observations from a re-analysis of the deposited data

Results flagged for a closer look

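Among 20 tests of single tumors, for 10 members in 2 groups, 2 tumors stood far from the others of their group, and chance gives about 1 in 20. Fbl was at 3.89 CPM in F368, from 32 reads, where the other 3 p53-driven tumors were between 2.76 and 2.94 CPM. The exact Poisson 95% interval in F368, 2.66 to 5.49 CPM, holds those 3 values, so the gap lies within counting error. All 4 values lay below that of the lowest Myc-knockin tumor, M9, at 10.4 CPM from 13 reads. Its interval, 5.51 to 17.7 CPM, meets that of F187, 1.11 to 5.70 CPM. Nolc1 was at 75.7 CPM in M9, from 95 reads, where the other 4 Myc-knockin tumors were between 185 and 214 CPM. M9 was also the library with most satellite counts and most genomic background.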

How the results depend on the processing

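The log2 fold change of the members was positive in all 209 values from 21 alternative fits. Of these, 35 lost and 38 gained a call, 48 kept a call and 88 stayed without one. The number called was not stable. Of 10 members 4 were called with all tumors, 8 with upper-quartile scaling, 0 with library size alone (5 had an unadjusted p under 0.05), 2 after removing the satellite genes, 2 with all genes of at least 1 count, 9 of 9 with at least 10 counts in every tumor (Fbl could not be tested), 9 with DESeq2, 2 without M624 and M664, 1 when the GC and length offset was added to that, 10 without the 4 satellite-rich libraries and 10 after background subtraction. Leaving out each tumor in turn, the number ranged from 0 to 10, at 0 without F325, F331 or F368 (each time 10 had an unadjusted p under 0.05, and of all genes only 2, 0 and 0 were called higher), 1 without F187, 2 without M408 or M624, and 10 without M9. Of all genes tested, the share called higher moved as well: 2.26% with all tumors, 4.07% with upper-quartile scaling, 0.325% with library size alone, 1.55% after removing the satellite genes, 0.457% with all genes of at least 1 count, 8.46% with at least 10 counts, 6.59% with DESeq2 (of genes with an adjusted p), 1.80% without M624 and M664, 1.65% with the offset added, 15.7% without the satellite-rich libraries, 4.29% after background subtraction, and 0% to 6.03% on leaving out a tumor. Of the 57 tested genes in the other snoRNP, rRNA modification, U3 processome and RNA polymerase I lists 9 were called. The same settings gave 16 with upper-quartile scaling, 0 with library size alone (17 had an unadjusted p under 0.05), 2 with all genes, 20 with at least 10 counts, 24 with DESeq2, 16 with limma-voom, 4 without M624 and M664 with or without the offset, 34 without the satellite-rich libraries and 16 after background subtraction. Leaving out a tumor gave 0 to 26 of them, at 0 without F325, F331 or F368, 1 without F187, 5 without M624 or M664, and 26 without M9. The cause of these shifts was not tested, and some settings also hold fewer tumors or another set of genes.

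Upper-quartile scaling moved the median of all genes from 0.14 to 0.24 and the calls from 348 higher and 461 lower to 626 higher and 345 lower, and library size alone moved the median to 0.03 with 50 higher and 86 lower. The members' median stood at 1.29, 1.33 and 1.40 in these fits. No paired analysis was possible because the columns of the table carry no replicate numbers. Depth limits Fbl most, with 7 reads in F187 and 13 in M9.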
